A study of Mus musculus with 2 samples.

Results

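Genes for TGF-β ligands and receptors were examined for regions enriched in ChIP-seq of Etv4 and Etv5. The 8 genes were Tgfb1, Tgfb2, Tgfb3 and Inhba, which encode ligands, and Tgfbr1, Acvr1, Tgfbr2 and Tgfbr3, which encode receptors. They were taken by name from the 21938 protein-coding genes of the GENCODE annotation. Every region lying inside one of these genes or within 50 kb of it was kept, which gave 17 of 13636 Etv4 regions and 7 of 8297 Etv5 regions. The data comprised 2 ChIP-seq libraries, 1 for each antibody, so there were no replicates and no test between the antibodies could be made. Both libraries came from EpRas cells, a derivative of the EpH4 mouse mammary epithelial line that carries transforming H-Ras. The cells were grown in 4% serum and exposed to 1 ng/ml TGF-β3 for 1.5 h. Neither untreated cells nor a control library was analysed here, so no region can be assigned to the TGF-β3 treatment. Regions carry no read count, the depth behind each list is unknown, and the labelled cell type cannot be checked against expression markers in such lists.

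TGF-β ligands are secreted in a latent form and, once released, bring together type II and type I receptors, which are kinases of the cell surface. The type I receptor then phosphorylates Smad proteins, which enter the nucleus and act on transcription. In mammary epithelial cells TGF-β restrains growth, and in Ras-transformed cells it drives the epithelial-mesenchymal transition. Etv4 and Etv5 are transcription factors of the ETS family, which bind DNA with a GGAA core.

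Of the 8 genes, 7 had an Etv4 region and 6 had an Etv5 region. Among all protein-coding genes the shares were 53.4% for Etv4 and 42.7% for Etv5. The median gene of the 8 had 2 Etv4 regions and 1 Etv5 region, against 1 and 0 for all protein-coding genes. The means were 2.12 against 1.48 for Etv4 and 0.875 against 0.84 for Etv5. The windows of the 8 genes, from 118 to 283 kb, had a median of 172 kb, and the median over all genes was 117 kb. Among the 9636 genes with windows of the same range of lengths, 57.3% had an Etv4 region and 45.5% an Etv5 region. With no spread between libraries to set these counts against, 7 and 6 of 8 genes are given as a description. The counts also followed the window, with 9 Etv4 and 3 Etv5 regions within 20 kb and 27 and 12 within 100 kb, and genes with an Etv5 region fell to 3 within 20 kb. In the longer 50% of each list 11 Etv4 regions at 6 genes and 2 Etv5 regions at 2 genes were left.

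**Figure D1:**
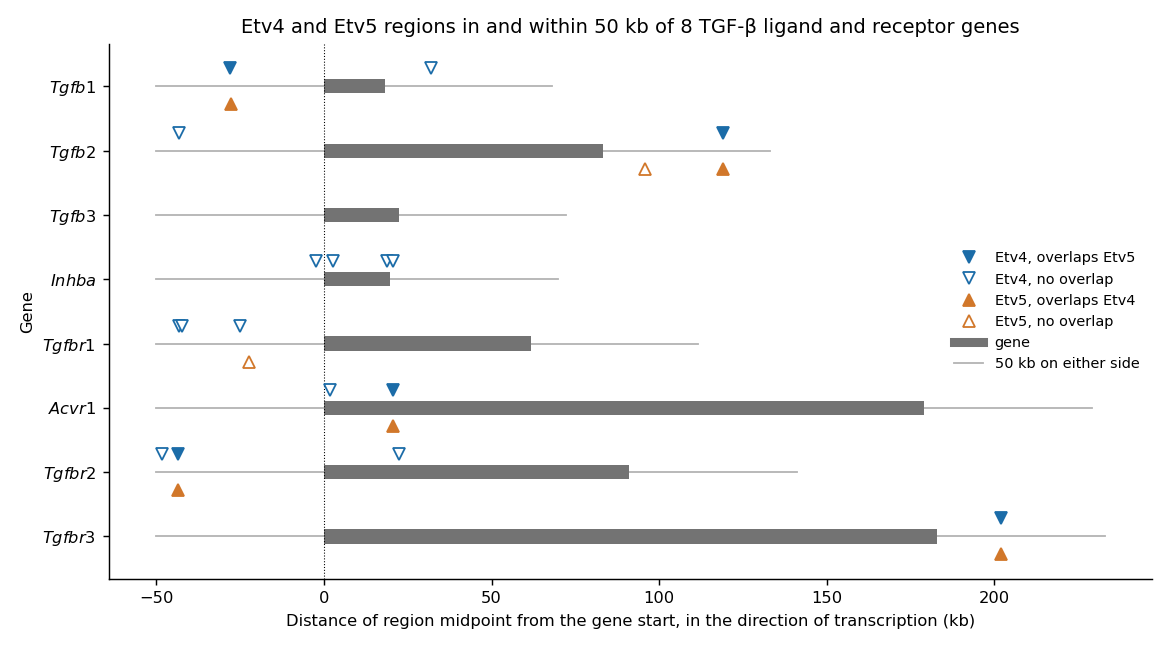
Position of each region by its midpoint relative to the gene start, in kb in the direction of transcription, for the 8 genes (rows). Downward triangles are Etv4 and upward triangles Etv5 regions, filled where the lists overlap, bars are the genes, and grey lines extend 50 kb on either side. The 4 Etv4 regions of Inhba lie within 20.7 kb of its start, and Tgfb3 has no region.

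Of the 17 Etv4 regions, 2 had their midpoint within 2 kb of a transcript start of one of the 8 genes, 1 at Inhba and 1 at Acvr1, and no Etv5 region did. The count was 1 at a distance of 1 kb, that of Inhba, 3 at 5 kb, and 1 with gene starts alone, that of Acvr1. Counted by gene this was 2 of 8 for Etv4 and 0 of 8 for Etv5, and across all protein-coding genes 17.9% had such an Etv4 region and 10.6% such an Etv5 region. Inside the genes there were 5 Etv4 regions in 3 genes (Inhba, Acvr1 and Tgfbr2) and 1 Etv5 region in Acvr1. The background was 23.0% of genes for Etv4 and 14.7% for Etv5, not adjusted for gene length, which was 18.1 to 183 kb at the 8 genes. A further 8 Etv4 regions were upstream and 4 downstream, while 3 Etv5 regions were upstream and 3 downstream. Distances from the midpoint to the gene start ran from 1.67 to 202 kb for Etv4 (median 28.1 kb) and from 20.6 to 202 kb for Etv5 (median 43.4 kb).

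Proximity alone did not tie every region to the gene in whose window it lay. For 11 of the 17 Etv4 regions (64.7%) the nearest protein-coding start was that of the ligand or receptor gene, and for 6 of the 7 Etv5 regions (85.7%). Over all pairs of a protein-coding gene and a region in its window, these shares were 34.4% and 36%. Those pairs count a region once for each gene whose window holds it, and they are not matched for neighbouring genes. At the genes with regions, other protein-coding genes in the window numbered 0 at Inhba, 1 at Tgfb2, Tgfbr1, Tgfbr2 and Tgfbr3, 3 at Acvr1 and 6 at Tgfb1. The other 6 Etv4 regions and the other Etv5 region were nearer to the starts of Bckdha, Exosc5, Ccdc97, Rrp15 or Col15a1, all at Tgfb1, Tgfb2 and Tgfbr1.

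The sequences below carry the patterns on which the later comparisons turn. All are from GRCm38, the assembly named mm10, and are written 5′ to 3′ on the plus strand. An exact ETS pattern, CAGGAAGT or CCGGAAGT on either strand, was present in 2 of the 17 Etv4 regions. Both copies were CCGGAAGT, and both lay at starts of neighbouring genes. The capitals mark the pattern, which in the first sequence is on the minus strand.
Ccdc97 start near Tgfb1, Etv4, chr7:25719029-25719058: tacccgcaggtACTTCCGGttacgcaagcg
Rrp15 start near Tgfb2, Etv4, chr1:186749307-186749336: atcttggctcgCCGGAAGTgccacctgata

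AP-1 factors are dimers of Jun, Fos and ATF proteins that bind TGACTCA or TGAGTCA, each the reverse complement of the other. These letters were found mainly at the receptor genes. The sequences show AP-1 copies at 5 of the genes, in capitals.
Acvr1 intron 1, both lists, chr2:58546383-58546582: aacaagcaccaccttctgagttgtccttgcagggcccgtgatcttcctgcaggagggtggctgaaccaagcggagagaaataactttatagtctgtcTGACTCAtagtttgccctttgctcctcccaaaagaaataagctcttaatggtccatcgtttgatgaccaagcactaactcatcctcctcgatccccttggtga
Tgfbr2 intron 2, Etv4, chr9:116153079-116153238: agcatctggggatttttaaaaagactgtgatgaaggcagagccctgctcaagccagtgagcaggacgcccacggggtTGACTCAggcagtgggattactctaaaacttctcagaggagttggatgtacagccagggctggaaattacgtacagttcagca
Tgfbr2 upstream, Etv4, chr9:116223408-116223647: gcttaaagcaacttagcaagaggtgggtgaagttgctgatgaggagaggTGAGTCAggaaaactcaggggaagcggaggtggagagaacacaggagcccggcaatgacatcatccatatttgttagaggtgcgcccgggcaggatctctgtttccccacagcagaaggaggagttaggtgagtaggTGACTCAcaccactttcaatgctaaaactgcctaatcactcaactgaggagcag
Tgfbr3 downstream, both lists, chr5:107087256-107087455: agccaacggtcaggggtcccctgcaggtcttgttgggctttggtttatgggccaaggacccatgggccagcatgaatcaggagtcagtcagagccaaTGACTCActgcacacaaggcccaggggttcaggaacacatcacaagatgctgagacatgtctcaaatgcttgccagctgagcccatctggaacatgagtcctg
Tgfbr1 upstream, Etv5, chr4:47330743-47330902: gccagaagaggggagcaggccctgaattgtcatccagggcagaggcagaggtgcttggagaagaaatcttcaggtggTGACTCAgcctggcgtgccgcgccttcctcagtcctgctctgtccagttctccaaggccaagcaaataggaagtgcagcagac
Tgfb2 downstream, Etv5, chr1:186610051-186610210: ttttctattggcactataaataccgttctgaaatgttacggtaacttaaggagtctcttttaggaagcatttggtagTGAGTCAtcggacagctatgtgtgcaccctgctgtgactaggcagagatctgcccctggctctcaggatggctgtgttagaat

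At the other overlapping pairs no exact ETS or AP-1 copy was present. A stretch inside each overlap is shown, with capitals on a shorter ETS core where the stretch holds one. This core is GGAA preceded by A or C and followed by A or G, on either strand. Cores elsewhere in the overlaps are not shown. The Bckdha to Exosc5 overlap held CGGAAG at chr7:25659194-25659199, past the end of its stretch.
Bckdha to Exosc5 near Tgfb1, both lists, chr7:25658982-25659163: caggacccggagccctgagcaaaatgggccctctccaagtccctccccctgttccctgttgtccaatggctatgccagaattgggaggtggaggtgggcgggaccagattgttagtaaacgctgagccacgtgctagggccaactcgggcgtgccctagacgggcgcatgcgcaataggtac
Tgfb2 downstream, both lists, chr1:186586944-186587143: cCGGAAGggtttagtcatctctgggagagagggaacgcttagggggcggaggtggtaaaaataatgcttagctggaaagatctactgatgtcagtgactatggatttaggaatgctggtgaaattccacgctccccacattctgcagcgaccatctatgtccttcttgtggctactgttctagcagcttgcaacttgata
Tgfbr2 upstream, both lists, chr9:116218767-116218966: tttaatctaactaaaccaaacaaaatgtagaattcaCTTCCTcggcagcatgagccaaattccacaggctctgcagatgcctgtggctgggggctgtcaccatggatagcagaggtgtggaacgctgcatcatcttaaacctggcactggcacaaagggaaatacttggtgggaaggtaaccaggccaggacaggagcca

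The 4 Inhba regions had GC contents of 36.6 to 41.0%, below the 43.4 to 60.5% of the regions at the other genes, and pieces of 2 of them are shown for that reason. In the second, the capitals mark TGTGGTT, a pattern of RUNX factors.
Inhba intron 3, Etv4, chr13:16014548-16014747: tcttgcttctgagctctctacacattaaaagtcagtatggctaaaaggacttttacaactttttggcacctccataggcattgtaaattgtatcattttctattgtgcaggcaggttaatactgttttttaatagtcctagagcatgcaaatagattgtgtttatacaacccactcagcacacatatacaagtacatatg
Inhba downstream, Etv4, chr13:16032387-16032546: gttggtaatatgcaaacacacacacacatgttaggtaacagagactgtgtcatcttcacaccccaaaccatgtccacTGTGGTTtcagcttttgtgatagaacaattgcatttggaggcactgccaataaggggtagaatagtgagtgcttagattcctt

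Tgfb1 encodes the TGF-β1 ligand, a regulator of growth and matrix production, and lies at chr7:25687002-25705077 on the plus strand. Its window held 2 Etv4 regions and 1 Etv5 region, none inside the gene. The first Etv4 region, chr7:25658401-25659360, was 960 bp long and centred 28.1 kb upstream of the gene start. It spanned the starts of Bckdha, a subunit of the branched-chain ketoacid dehydrogenase, and Exosc5, a subunit of the RNA exosome, which are transcribed away from each other. An Etv5 region, chr7:25658955-25659377, shared 406 bp with it and had its midpoint 0.002 kb from the Exosc5 start. The other Etv4 region, chr7:25718653-25719250, covered the start of Ccdc97, 31.9 kb downstream of the Tgfb1 start, and held 1 of the CCGGAAGT copies, 92 bp from its midpoint. All 3 regions at Tgfb1 thus covered starts of other genes, in a window with 6 other protein-coding genes.

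Tgfb2, another TGF-β ligand gene, lies at chr1:186622792-186705989 on the minus strand, and its window held 2 regions of each list. Beyond the 3′ end of the gene, the Etv4 region chr1:186586688-186587697 (1010 bp) contained the whole of the Etv5 region chr1:186586745-186587342 (598 bp). The pair was intergenic, with the Etv4 midpoint 119 kb from the gene start and 35.6 kb past its end, and the nearest protein-coding start was a Tgfb2 start 62.8 kb away. Another Etv5 region, chr1:186609908-186610352, lay 12.7 kb past the gene end, overlapped no Etv4 region, and held TGAGTCA 1 bp from its midpoint. The upstream Etv4 region, chr1:186748979-186749683, spanned the starts of Rrp15, a ribosome biogenesis factor, and of the long intergenic non-coding RNA A430105J06Rik. It was 43.3 kb from the Tgfb2 start, and its CCGGAAGT was 9 bp from the midpoint of the region.

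Tgfb3 encodes the ligand with which the cells had been treated. It lies at chr12:86056745-86079041 on the minus strand and was the 1 gene of the 8 without a region of either list. Of all protein-coding genes, 40.4% had none, and of those with windows of comparable length 35.6%. The nearest Etv4 region was 55.6 kb from the gene and the nearest Etv5 region 55.8 kb, both just outside the window. Within 100 kb there were 3 Etv4 and 2 Etv5 regions, so the absence rests on the 50 kb limit.

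Inhba encodes the βA subunit of activin and inhibin, secreted proteins of the same family, of which activin signals through activin receptors and inhibin opposes it. The gene lies at chr13:16011851-16031621 on the plus strand, and its window held 4 Etv4 regions and no Etv5 region. At 3.34 Etv4 regions per 100 kb it had the highest density of the 8, above 90.0% of all protein-coding genes, and no other protein-coding gene lay in the window. The first region, chr13:16009056-16009663, was 2.49 kb upstream of the gene start, in an intron of the pseudogene B230303A05Rik. The region chr13:16014349-16014946 had its midpoint in intron 3 of the 5-exon transcript and spanned the start of another Inhba transcript 0.173 kb from that midpoint. The region chr13:16030128-16030972 fell in exon 5, in the 3′ UTR, and the last, chr13:16032265-16032861, was 0.941 kb past the gene end and spanned the start of the antisense RNA Gm48444. The nearest Etv5 region was 204 kb from the gene. Among all protein-coding genes 13.4% had at least 4 Etv4 regions. Of these 2947 genes 7.02% had no Etv5 region, and both together held for 0.944% of all genes. Both limits were taken from the counts at Inhba itself, so these shares describe the gene and test nothing. In GC content, 13.4% of all Etv4 regions lay below the highest of the 4, 41.0%. None of the 4 held an exact ETS or AP-1 pattern, and 1 held TGTGGTT, 96 bp from its midpoint. In region number they stood in the middle of the Etv4 list, between 48.5 and 63.5% of the way through it.

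Tgfbr1 encodes the type I receptor of TGF-β and lies at chr4:47353222-47414931 on the plus strand. Its window held 3 Etv4 regions and 1 Etv5 region, all upstream and none overlapping between the lists. The Etv4 region chr4:47309936-47310323 lay in an intron of Col15a1, a collagen gene, 43.1 kb from the Tgfbr1 start. Another, chr4:47327834-47328431, was intergenic at 25.1 kb and marginally nearer to a Col15a1 start, at 24.4 kb. The Etv5 region chr4:47330635-47330958 was 22.4 kb upstream, with its midpoint 2.66 kb from that of the nearest Etv4 region. It held TGACTCA.

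Acvr1 encodes a type I receptor for activins and bone morphogenetic proteins (also named Alk2) and lies at chr2:58388644-58567157 on the minus strand. All 3 of its regions were in intron 1 of the 12-exon transcript. The Etv4 region chr2:58546077-58546950 (874 bp) contained the whole Etv5 region chr2:58546299-58546821 (523 bp), 20.6 kb downstream of the gene start. Their midpoints were 46 bp apart and TGACTCA lay in both. The other Etv4 region, chr2:58565300-58565671, was 1.67 kb from the gene start and 1.34 kb from the nearest Acvr1 transcript start, and no Etv5 region overlapped it. This was the only one of the 8 genes with an overlapping pair inside the gene.

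Tgfbr2 encodes the type II receptor that binds TGF-β and lies at chr9:116084293-116175360 on the minus strand. It had 3 Etv4 regions and 1 Etv5 region. One Etv4 region, chr9:116152717-116153294, was in intron 2 of the 8-exon transcript, 22.4 kb from the gene start, and held TGACTCA. The Etv4 region chr9:116218716-116219149 and the Etv5 region chr9:116218420-116219017 shared 302 bp and spanned the start of the long intergenic non-coding RNA Gm31410, 43.6 and 43.4 kb upstream of Tgfbr2. The Etv4 region chr9:116223360-116223730, in an intron of Gm31410 and 48.2 kb upstream, held 2 AP-1 copies, the most in any of the regions.

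Tgfbr3 encodes betaglycan, a co-receptor that presents ligands to the signalling receptors, and lies at chr5:107106570-107289629 on the minus strand. Its window was the longest, at 283 kb, and its density of Etv4 regions, 0.353 per 100 kb, was the lowest of the genes that had any. The Etv4 region chr5:107087153-107087791 (639 bp) contained the Etv5 region chr5:107087197-107087549 (353 bp). Both were intergenic, 202 kb from the gene start, with the Etv4 midpoint 19.1 kb past the gene end, and both held the TGACTCA shown above.

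**Figure D2:**
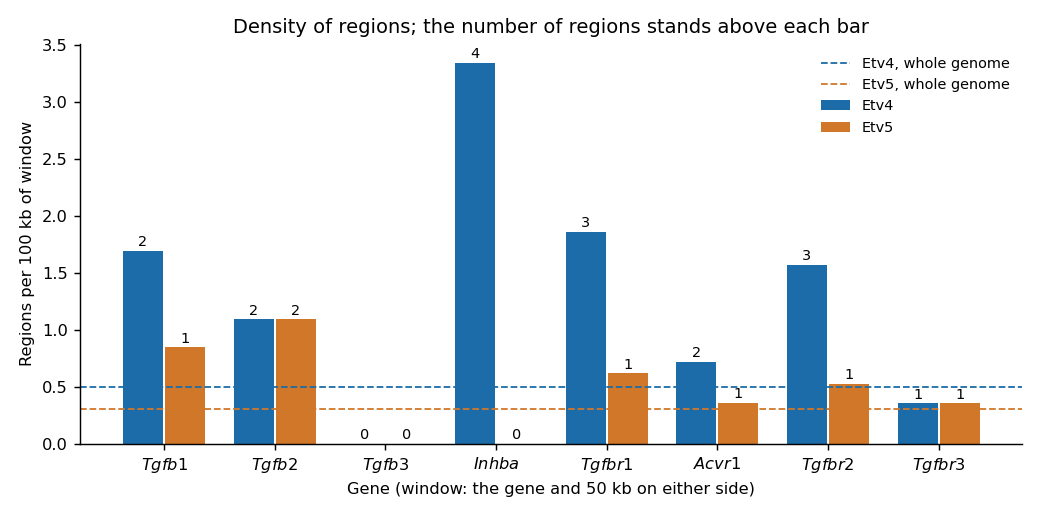
Regions per 100 kb of window for each of the 8 genes, with the number of regions above each bar and dashed lines at the density over the whole genome (0.5 for Etv4 and 0.304 for Etv5). Inhba has the highest Etv4 bar, at 3.34, beside an Etv5 bar of 0.

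Averaged over the 8 genes, density was 1.33 Etv4 and 0.474 Etv5 regions per 100 kb of window, and averaged over all protein-coding genes it was 1.14 and 0.636. In order of Etv4 density the genes ran Inhba (3.34 per 100 kb), Tgfbr1 (1.86), Tgfb1 (1.69), Tgfbr2 (1.57), Tgfb2 (1.09), Acvr1 (0.718), Tgfbr3 (0.353) and Tgfb3 (0). Neighbours in this order often differ by a single region or by window length alone, and there is no replicate to order them by. The 4 ligand genes held 8 Etv4 and 3 Etv5 regions and the 4 receptor genes 9 and 4.

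Overlap of the lists was counted where regions shared at least 1 bp. At the 8 genes 5 Etv4 regions overlapped an Etv5 region (29.4%, exact 95% interval 10.3 to 56.0), against 37.8% of the whole Etv4 list. In the longer 50% of both lists 1 of 11 did (9.09%), against 39.1% of all Etv4 regions in it, since 3 pairs lost their Etv5 region and 1 its Etv4 region to the length limit. Seen from Etv5, 5 of 7 regions overlapped (71.4%, interval 29.0 to 96.3), against 63.2% of the list. These Clopper-Pearson intervals cover counting error only. The 5 pairs belonged to 5 genes, Tgfb1, Tgfb2, Acvr1, Tgfbr2 and Tgfbr3, and 29.5% of all protein-coding genes had an overlapping Etv4 region. That share is not matched for window length, of which the median was 172 kb for the 8 genes and 117 kb for all.

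The region number in each file runs from 1 without gaps and tends to be low for long regions (Spearman's rho with length -0.9 for Etv4 and -0.87 for Etv5, across regions). What ordered the regions is not given in the sources used here, and the number was read only as a place in the list. The 17 Etv4 regions had a median place of 49.1% and the 7 Etv5 regions of 44.0%, with 0 as the first. The 5 overlapping Etv4 regions had a median place of 18.1% and the other 12 of 50.8%. In the whole list 73.3% of the first 20% of Etv4 regions overlapped an Etv5 region and 15.1% of the last 20%.

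Among the pairs, the places were farthest apart at Tgfb1. There the Etv4 region stood at 1.86% of its list (number 254) and the Etv5 region at 70.5% (number 5850), 68.6 percentage points apart. Of all 5317 overlapping pairs 3.87% were at least that far apart, 3.07% in the same direction, and the median distance was 17.5 points. At Tgfbr2 the order was turned, with the Etv4 region at 73.4% and the Etv5 region at 15.5%. As far apart were 8.31% of pairs, and 2.14% in that direction. At Tgfb2, Acvr1 and Tgfbr3 the Etv4 region was earlier in its list by 24.7, 22.6 and 25.9 points, and 25.5, 27.3 and 24.5% of pairs were at least as far apart in that direction. Midpoints lay 46 bp apart at Acvr1, 99 bp at Tgfbr3, 149 bp at Tgfb2, 214 bp at Tgfbr2 and 285 bp at Tgfb1, and the median over all pairs was 86 bp.

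**Figure D3:**
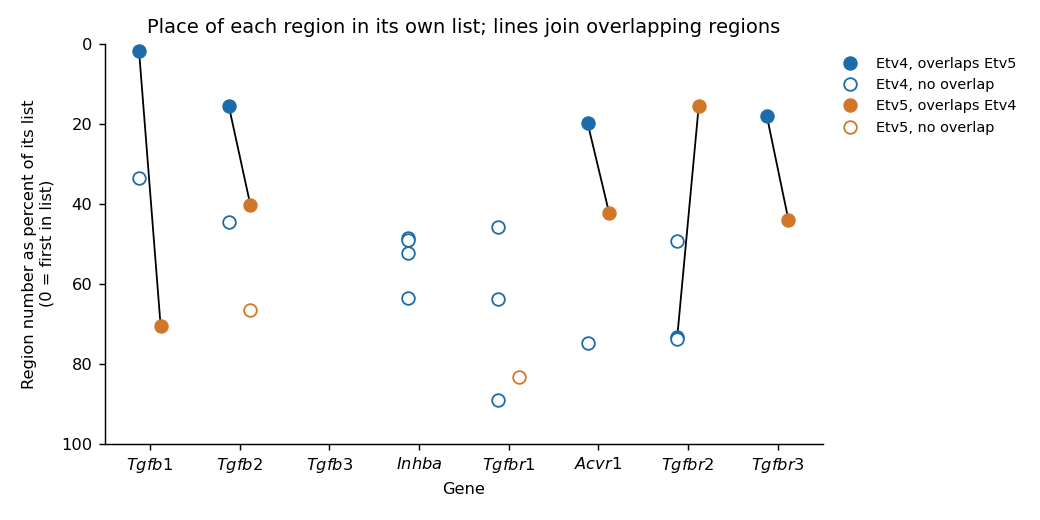
Place of each region in its own list, as region number in percent of the list (0 is the first region, axis inverted), by gene and antibody. Filled points are regions that overlap the other list, and lines join them. The lines of Tgfb1 and Tgfbr2 are the steepest and run in opposite directions.

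Sequence patterns were searched on both strands in the 500 bp around each midpoint. The exact ETS pattern was in 2 of 17 Etv4 regions (11.8%, interval 1.46 to 36.4), against 10.2% of the whole list. It was in 0 of 7 Etv5 regions (interval 0 to 41.0), against 7.92%. CCGGAAGT alone was in 3.45% of the Etv4 list and 2.17% of the Etv5 list, against the same 2 of 17 and 0 of 7. The shorter ETS cores were in 14 of 17 (82.4%) and 6 of 7 (85.7%), against 81.5% and 79.1%, so the share at the 8 genes depends on how the pattern is written. Read backwards, as TGAAGGAC or TGAAGGCC, the exact pattern was in none of the 24, against 3.59% and 3.81% of the lists.

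The AP-1 pattern was in 5 of 17 Etv4 regions (29.4%, interval 10.3 to 56.0), against 37.4% of the list. It was in 4 of 7 Etv5 regions (57.1%, interval 18.4 to 90.1), against 35.7%. By class of gene it was in 0 of 8 Etv4 regions at the ligand genes and 5 of 9 at the receptor genes. For Etv5 it was in 1 of 3 and 3 of 4. Counting each position once, there were 7 copies at the 4 receptor genes and 1 copy at the ligand genes, that of Tgfb2. Position relative to starts moved with these counts. Within 2 kb of a start of any gene, non-coding genes included, lay 8 of the 17 Etv4 regions (36.5% of the list) and 2 of the 7 Etv5 regions (33.1% of the list). Of these 8 Etv4 regions, 2 held the ETS and 0 the AP-1 pattern, against 13.5% and 19.6% of all Etv4 regions so placed. Of the 9 farther away, 0 held the ETS and 5 the AP-1 pattern, against 8.27% and 47.6% of all Etv4 regions so placed. By class, 6 of the 8 Etv4 regions at the ligand genes and 2 of the 9 at the receptor genes lay within 2 kb of a start. Farther away, AP-1 was in 0 of 2 at the ligand genes and 5 of 7 at the receptor genes. With so few regions, class of gene and position cannot be told apart.

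The RUNX pattern, TGTGGTT or TGTGGTC, was in 2 of 17 Etv4 regions, 1 at Inhba and 1 at Tgfbr1, against 24.7% of the list, and in 0 of 7 Etv5 regions, against 23.9%. GTCTAGAC, a palindromic Smad binding element, was in none of the 24, against 0.799% and 0.759%. All of these counts are small, and the intervals are wide enough to include the shares of the whole lists.

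**Figure D4:**
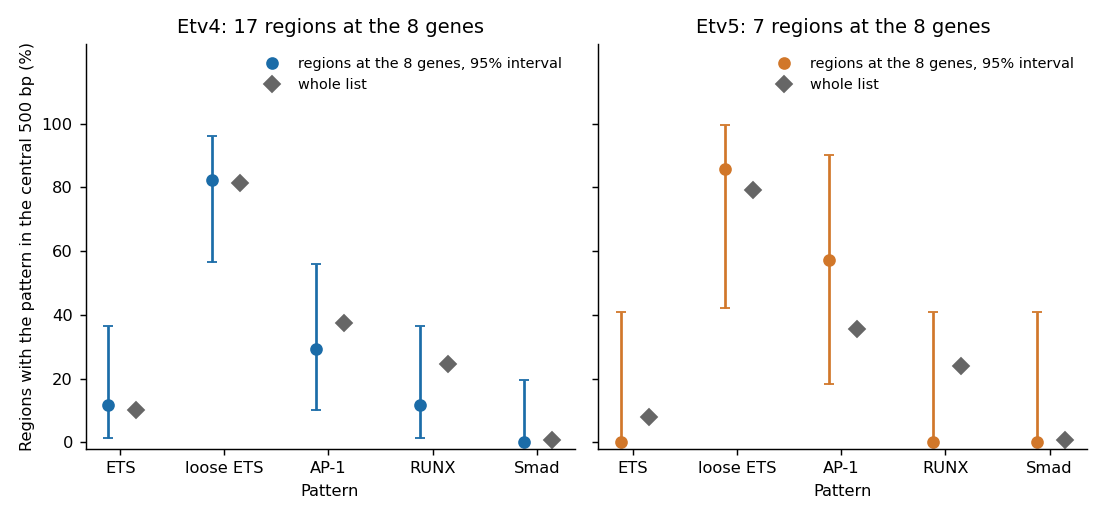
Percent of regions with each pattern in the central 500 bp, for the 17 Etv4 regions (left) and 7 Etv5 regions (right) at the 8 genes, with exact 95% binomial intervals. Grey diamonds are the whole lists, and each lies inside the interval beside it.

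Promoters of RefSeq on GRCm38, from 250 bases before to 50 after a start, were at hand for 6 of the 8 genes, 7 promoters in all. None of them overlapped a region of either list, against 9.38% of all promoters for Etv4 and 4.58% for Etv5. No exact ETS, AP-1, RUNX or Smad pattern was found in the 7, and among all 32851 promoters the shares were 7.07, 5.2, 9.27 and 0.213%. The shorter ETS cores were in 4 of the 7, against 64.7% of all.

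None of the 24 regions contained a run of 36 bases, the read length of the accessibility libraries whose methods the ChIP-seq followed, that occurs more than once in the assembly.

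Other genes of the pathway were counted from a list of 66 symbols, of which 65 were found. The symbol not found, Hjv, names the same gene as Hfe2, which was counted. An Etv4 region was present in or near 27 (41.5%) and an Etv5 region in or near 24 (36.9%), both below the background of all protein-coding genes given above. In all, 35 of the 65 (53.8%) had neither, against 40.4% of all protein-coding genes, and 18 (27.7%) had an overlapping pair, against 29.5%.

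The genes of the latent complex and its activation had the most regions of the 7 groups, with 9 of 11 having Etv4 regions and 9 of 11 Etv5 regions, and medians of 5 and 3. Of the genes of the latent TGF-β binding protein family, Ltbp3 had 15 Etv4 and 8 Etv5 regions, Ltbp2 14 and 7, and Ltbp1 13 and 5. At Ltbp3, 4 of the 15 and 2 of the 8 lay inside the gene. At Ltbp2 these were 6 of the 14 and 2 of the 7, and at Ltbp1 12 of the 13 and 4 of the 5. The others were in flanking sequence, and whether they lay nearer to starts of other genes is not given here. Itgb6, a subunit of the integrin that releases TGF-β in epithelia, had 12 and 7. Thbs1, the matrix protein thrombospondin-1, had 3 and 3. Over the whole list, 8 of 65 genes (12.3%) had an Etv4 region and 7 (10.8%) an Etv5 region within 2 kb of a start, against the 17.9% and 10.6% of all protein-coding genes given above. A region that overlapped the other list was that near at Ltbp1, Ltbp3 and Thbs1 in this group and at Bmp7 elsewhere, 4 of 65 genes (6.15%) against 5.71% of all. These counts are not adjusted for gene length.

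The other ligands and receptors had fewer. Among bone morphogenetic protein ligands 6 of 17 had an Etv4 region and 5 an Etv5 region, with Amh and Bmp6 at 3 and 2 each and Bmp7 at 2 and 3. Of the other activin and nodal type ligands 6 of 12 had an Etv4 region and 5 an Etv5 region. Gdf15, a stress-induced ligand, had 5 and 2, and the Nodal antagonists Lefty2 and Lefty1, whose windows overlap, had 4 and 3 and 3 and 2. The other type I receptor genes had a region of either list in 2 of 5, Bmpr1b with 4 Etv4 regions and Bmpr1a with 1 Etv5 region, while Acvr1b had none. Of the other type II receptor genes 1 of 4 did, Amhr2 with 1 of each, and Acvr2a and Acvr2b had none. The co-receptor Eng (endoglin) had 5 and 3, Hfe2 had 3 Etv4 regions and Rgmb 1 Etv5 region. Extracellular antagonists had Etv4 regions at 2 of 9 genes, Chrd (chordin) with 2 and 1 Etv5 region and Bgn (biglycan) with 2 and none, and Dcn (decorin) had none.

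**Figure D5:**
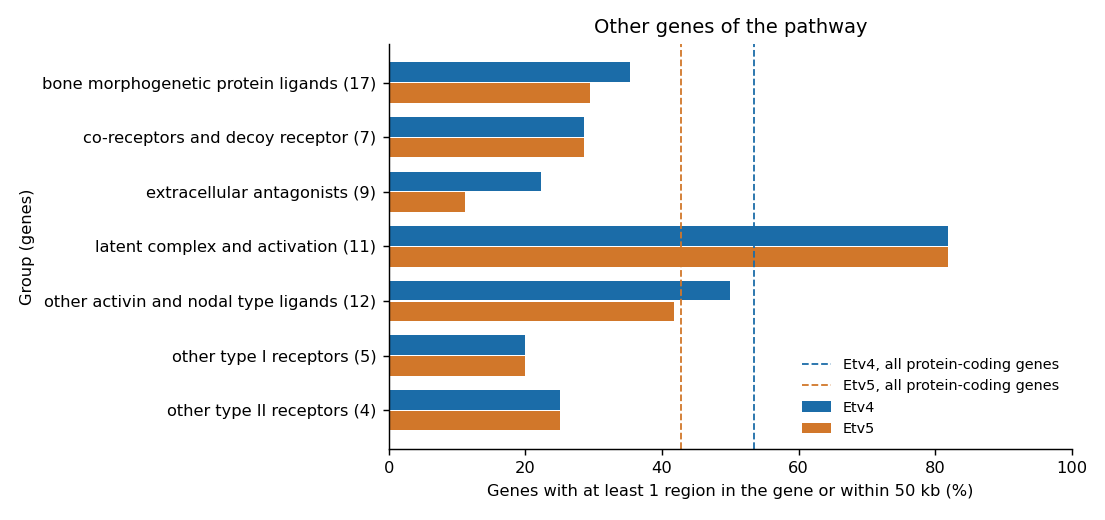
Percent of genes with at least 1 Etv4 or Etv5 region in the gene or within 50 kb, by group of pathway genes (number of genes in brackets), with dashed lines at the shares of all protein-coding genes, 53.4% and 42.7%. Both bars of the latent complex group, at 81.8%, lie past these lines, and those of every other group lie below them.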

How the data were processed

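ChIP-seq libraries were made with a rabbit polyclonal antibody to Etv4 and a mouse monoclonal antibody to Etv5, amplified by 15 cycles of PCR and sequenced on an Ion Proton. Bowtie and mm10 are named in the submitters' processing notes. The authors called regions per library with the one-sample mode of CisGenome (window of 300 bp, p threshold of 0.1), without a control. The deposited lists hold positions, a region number and a BED score of 1000 throughout. Depth is unknown, so precision could not be derived from reads.

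Genes and transcripts came from GENCODE release M21 and sequence from GRCm38. Regions were grouped by the antibody of the labels. A region belonged to a gene when any base lay in it or within 50 kb, distances ran from the midpoint, and overlap needed 1 bp. The GENCODE annotation gives several starts per gene, all of which counted. Region placement, overlap and pattern searches were tested on simulated data. Details of 1 region, which is included in the counts, are not reported here. Shares have exact 95% binomial intervals. The text names all 8 genes and, from the pathway list, the 3 genes per group with most regions and those with overlapping regions within 2 kb of a start. The members and lists were chosen with earlier results of these data known. Alternatives were windows of 20 and 100 kb, merging within 300 bp, the longer 50% of each list, other rules of overlap, start distances of 1 and 5 kb, gene starts only, and search in 200 bp or the whole region. The versions were Python 3.11.15, matplotlib 3.10.9, numba 0.67.0, scipy 1.17.1, numpy 2.4.6 and pandas 2.3.3.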

Additional observations from a re-analysis of the deposited data

How the results depend on the processing

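Merging regions within 300 bp changed no count of regions or genes. The Etv4 regions at the 8 genes numbered 9 within 20 kb, 27 within 100 kb and 11 in the longer 50% of the list, and the Etv5 regions 3, 12 and 2. Genes with an Etv5 region fell from 6 to 3 within 20 kb and to 2 in the longer 50%, while genes with an Etv4 region stayed between 5 and 8. The share of Etv4 regions overlapping Etv5 was 9.09% (1 of 11) in the longer 50%, against 39.1% of all Etv4 regions there, and from 22.2% to 37.0% under the other alternatives. Etv4 regions near a start of the 8 genes numbered 1 at 1 kb, 3 at 5 kb and 1 when only gene starts counted. The exact ETS shares were unchanged by search in 200 bp, in the whole region or for CCGGAAGT alone. The AP-1 shares were unchanged in the whole region. In 200 bp the AP-1 share of Etv4 regions was 17.6% (3 of 17), within its interval, and that of Etv5 regions stayed at 57.1%. Alternatives added once the data were known were the leading 50% of both lists in number order, which left 10 Etv4 and 4 Etv5 regions, and the shorter ETS cores, which gave 82.4% and 85.7%. The smaller windows and lists can only hold fewer regions and genes. In the longer 50%, 3 of the 5 overlapping pairs lacked the Etv5 region and 1 the Etv4 region. No paired analysis was possible because there was 1 library for each antibody. Depth behind the regions is unknown, and with no replicate no count here can be set against a spread.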
